A study of Mus musculus with 6 samples.

Results

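The imprinted growth genes examined in the livers of young male mice fed regular chow or chow with soy were 10 in number: Peg3, Zim1, Usp29, Igf2, Igf2r, Dlk1, Cdkn1c, Plagl1, Grb10 and Mest. The members are the non-control probes whose RefSeq accession belongs to a listed gene, which gave 17 probes for the 10 genes, of 56605 probes and 22911 named genes on the array. The set was chosen by 1 measured value, the higher Peg3 signal in soy than in control livers, so the Peg3 values are given as a description without a test, and the other members were added to it by name. Liver RNA was taken from 3 control mice, fed 100% granulated regular food, and from 3 soy mice, fed 75% regular food with 25% soy bean powder. All were male. The paper describes mice of 12 weeks that were fed the diets for 4 weeks, with livers taken at the end of the diet. No strain was given for the mice, and each liver was hybridized to its own 1-colour Agilent array. A probe is called detected on an array where the scanner software marked it as well above background. Controls 1, 2 and 3 had 37010, 36366 and 38163 detected spots, more than soy 1, 2 and 3 with 31308, 31988 and 32498. All 8 hepatocyte markers, Alb among them, were detected throughout at least 1 diet group.

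Imprinted genes are transcribed mainly from the allele of 1 parent, under the control of DNA methylation that is set in the germ line on the chromosome of 1 parent. Many of them act on growth before birth and are turned down in the liver after birth. Peg3, Usp29, Igf2, Dlk1, Plagl1 and Mest are known as genes of the paternal allele, and Zim1, Igf2r, Cdkn1c and Grb10 as genes of the maternal allele in most tissues. Peg3 encodes a large zinc finger protein that binds DNA and takes part in growth, metabolism and cell death signalling, and it shares its imprinted domain on chromosome 7 with Zim1 and Usp29.

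The start of Peg3 is shown because it also serves Usp29, which is read in the opposite direction. RefSeq windows (GRCm38.p6) from 250 bases before to 50 bases after a start were found for 9 of the 10 genes, in 15 windows, and not for Cdkn1c. The Peg3 window (chr7:6730370-6730669, minus strand) and the Usp29 window (chr7:6730333-6730632, plus strand) have 263 bases in common, and the start sites used for them are 164 bases apart. The window of Zim1 (chr7:6696383-6696682, minus strand) is given beside it as that of the imprinted neighbour on the other side. Both are written 5′ to 3′, with capitals for matches to TGACGTCA, the cAMP response element, and to CCAAT, searched on both strands (ATTGG on the reverse strand). The motifs do not overlap each other.
Peg3: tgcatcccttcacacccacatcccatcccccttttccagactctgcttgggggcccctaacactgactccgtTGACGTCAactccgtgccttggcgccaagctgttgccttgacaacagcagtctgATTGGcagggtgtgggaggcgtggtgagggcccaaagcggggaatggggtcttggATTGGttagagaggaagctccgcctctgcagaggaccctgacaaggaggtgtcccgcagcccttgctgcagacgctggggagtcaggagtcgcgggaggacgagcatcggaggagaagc
Zim1: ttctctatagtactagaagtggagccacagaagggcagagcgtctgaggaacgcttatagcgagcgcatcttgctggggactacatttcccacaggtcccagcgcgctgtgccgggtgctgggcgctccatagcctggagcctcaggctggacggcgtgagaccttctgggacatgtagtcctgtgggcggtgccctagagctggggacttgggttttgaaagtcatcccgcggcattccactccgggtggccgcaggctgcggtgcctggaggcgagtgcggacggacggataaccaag

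The Peg3 window holds TGACGTCA 1 time and CCAAT 2 times, both in the stretch it has in common with Usp29, whose window counts the same matches. Of 32851 RefSeq windows, 1.79% hold TGACGTCA, 37.4% hold CCAAT and 11.7% hold CCAAT 2 or more times. Neither motif is in the Zim1 window, and among the other members 1 Igf2 window holds CCAAT 1 time. The motifs were chosen after the sequence was seen, and a match says only that these letters are present.

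Peg3 (NM_008817, 1 probe) was higher in every soy liver than in any control liver. Its normalized signal, in log2 units after background correction and quantile normalization, was 7.49, 6.75 and 6.96 in controls 1, 2 and 3 and 8.82, 8.95 and 9.13 in soy 1, 2 and 3. The groups were separated by 1.33 log2 units between the highest control and the lowest soy liver. The group means were 7.06 ± 0.38 in control and 8.97 ± 0.16 in soy livers (SD, n = 3), a difference of 1.90 (SE 0.19) or 3.73-fold. The median intensities before any correction, 201, 107 and 114 in control and 459, 449 and 568 in soy livers, keep the same order. The probe was detected in all 3 soy livers and in controls 1 and 3 but not in control 2, so the control level is close to the limit of detection. Of all probes, 30 differed by at least as much in the same direction, Peg3 included.

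The arrays lie on 3 slides. Slide 1 carried controls 1 and 2 with soy 1, slide 2 carried soy 2 alone, and slide 3 carried control 3 with soy 3. The Peg3 difference was 1.70 within slide 1 and 2.17 within slide 3. With 1 array left out it was between 1.73 and 2.08. The processed signal of Feature Extraction, scaled by the 75th percentile of each array, gave 3.37 (SE 0.53), and the cause of the larger value was not tested.

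**Figure D1:**
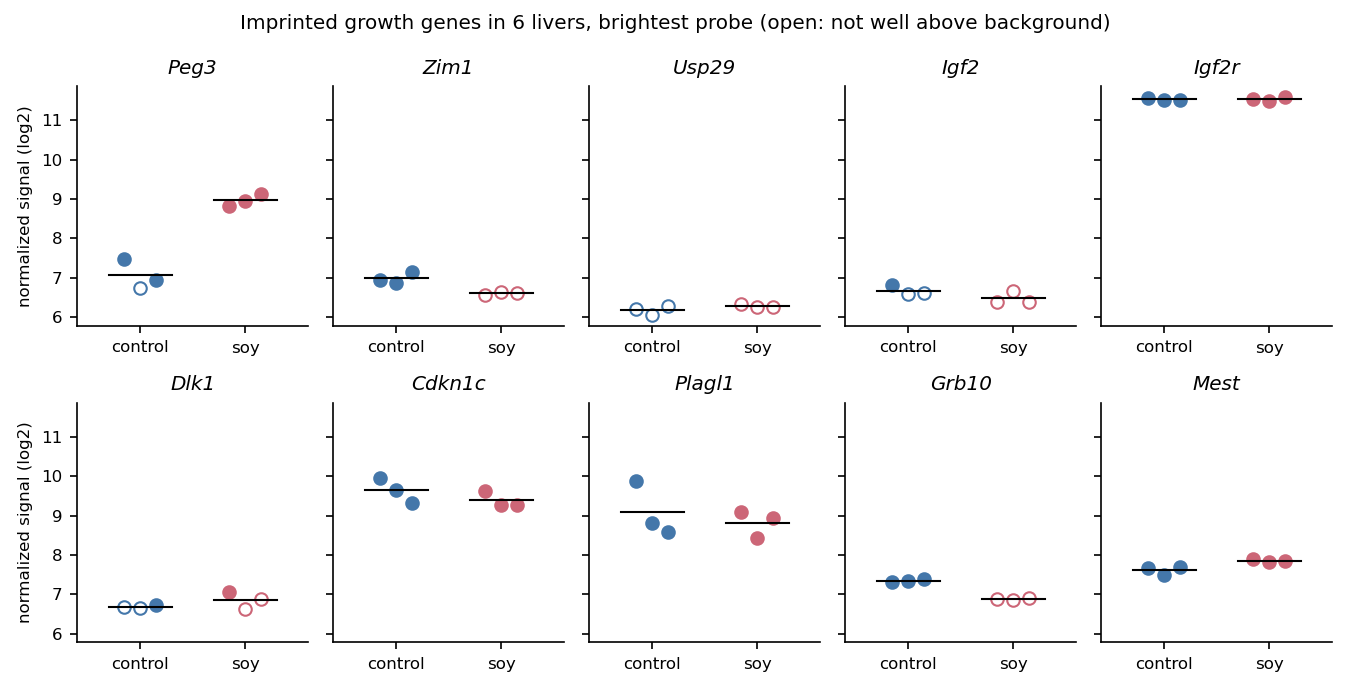
Normalized signal (log2, vertical axis) of the brightest probe of each gene in 3 control (blue) and 3 soy (red) livers, with 1 point per array and a line at the group mean; open points are arrays on which the probe was not detected. The Peg3 points lie between 6.75 and 7.49 in control and between 8.82 and 9.13 in soy livers, and levels of different probes cannot be compared.

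Both neighbours in the Peg3 domain were dim. Usp29, which encodes a ubiquitin-specific protease, was detected on no array by either of its probes, although it starts beside Peg3. Its brighter probe (NM_021323) read 6.22, 6.06 and 6.30 in control and 6.33, 6.27 and 6.26 in soy livers, which overlap. With neither group well above background, no fold is given. The difference of 0.09 (SE 0.10, limma adjusted p = 0.785) is one between undetected readings. It was 0.30 when the arrays were scaled by a shift of the 75th percentile and passed at 1.16 with the processed signal (adjusted p = 0.00177). Zim1, another zinc finger gene, was detected on all control arrays and on no soy array by its brighter probe (NM_011769). It read 6.95, 6.88 and 7.14 in control and 6.57, 6.65 and 6.62 in soy livers, so the groups did not overlap. The soy readings, none of them detected, lay 1.30-fold lower (limma adjusted p = 0.223). This fold holds for quantile-normalized signal only. The difference of -0.38 (SE 0.11) became -0.15 with the 75th-percentile shift and passed at -1.52 with the processed signal (adjusted p = 0.0204). Such folds set the brighter group against the higher of the dim probe's own signal and the lowest detected signal of each array. They are estimates and not smallest possible falls. The dimmer Zim1 probe was detected on 1 control array and differed by -0.25 (adjusted p = 0.729).

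The genes along chromosome 7 were then followed on both sides of Peg3, taking the 6 annotated genes on each side that have a probe. The choice was made after the Peg3 values were seen. None of these 12 genes passed (limma), and 4 had an unadjusted p under 0.05 on their brightest probe, as had 14.2% of all genes. Their differences were between -0.56 (Olfr1347, adjusted p = 0.121) and 0.09 (Usp29). Peg3os, the antisense transcript within Peg3, was detected on 1 control array, with 6.54 in control and 6.56 in soy livers and a difference of 0.01 (SE 0.23, adjusted p = 0.991). Zim2 and Zim3 differed by -0.29 (adjusted p = 0.409) and -0.32 (adjusted p = 0.234), and Zim2 was detected on 2 control arrays and no soy array. Olfr1347, Olfr1349, Zim1, Zim2 and Zim3 were lower in soy livers without overlap, as were 10.8% of all genes. For the other neighbours the groups overlapped.

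**Figure D2:**
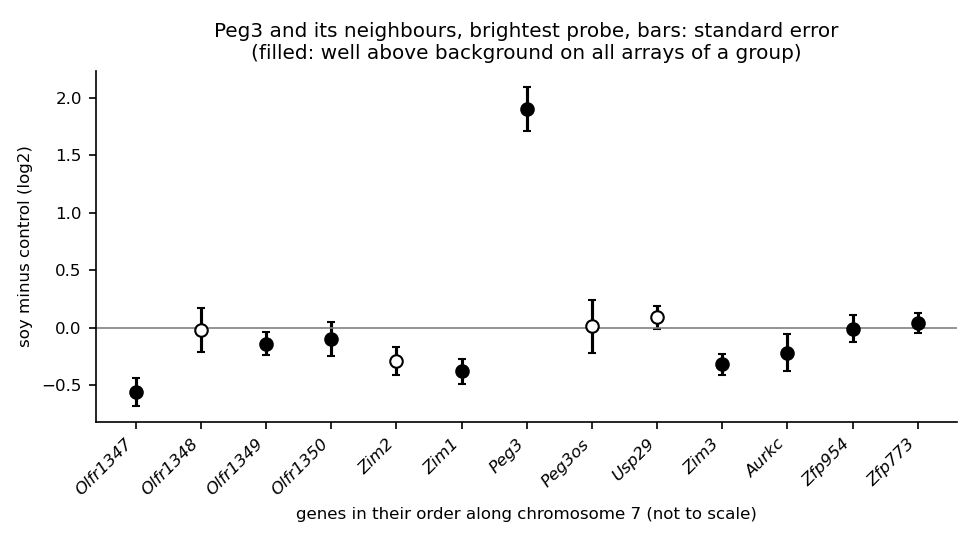
Difference between soy and control livers (log2, vertical axis, with standard error) for Peg3 and the 6 genes with a probe on each side of it, in their order along chromosome 7 and not to scale. Filled points were detected in all livers of a diet group, and Peg3 at 1.90 stands beside genes between -0.56 and 0.09.

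Growth factors and their receptors came next. Igf2, the fetal insulin-like growth factor, was close to background. Its brighter probe (NM_010514) read 6.82, 6.60 and 6.62 in control and 6.38, 6.66 and 6.40 in soy livers and was detected on control 1 alone. The groups overlapped, with a difference of -0.20 (SE 0.12, adjusted p = 0.585) between readings that were mostly not detected. It was 0.02 when the arrays were scaled by a shift of the 75th percentile and -0.93 (adjusted p = 0.155) with the processed signal. Igf2r, the receptor that takes IGF2 to the lysosome, was bright and level, with 11.57, 11.52 and 11.50 in control and 11.53, 11.49 and 11.59 in soy livers (NM_010515). Its difference was 0.00 (SE 0.09, adjusted p = 0.991), with overlapping groups. Dlk1 encodes a membrane protein of the Delta-like family that restrains adipocyte differentiation, and its 2 probes (NM_010052) went different ways. The brighter one, detected on 1 array of each group, differed by 0.17 (SE 0.13, adjusted p = 0.655). That difference was 0.39 with the 75th-percentile shift, 0.48 with the processed signal (adjusted p = 0.72) and 0.08 without soy 1. The other, detected on all control arrays and no soy array, read 7.00, 6.94 and 6.75 against 6.33, 6.63 and 6.47, so the groups did not overlap. Soy readings lay 1.32-fold lower on the quantile-normalized scale, from a difference of -0.42 (SE 0.12, adjusted p = 0.242). Dlk1 passed with the processed signal, although its brighter probe did not, and the value of the other probe there is not given.

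Of the genes that restrain growth, Grb10 showed the most separate groups. Grb10 encodes an adaptor that dampens signalling of the insulin and IGF1 receptors. Its brighter probe (NM_010345) read 7.31, 7.33 and 7.38 in control and 6.88, 6.85 and 6.92 in soy livers. It was detected on all control arrays and no soy array. Soy readings lay 1.37-fold lower on the quantile-normalized scale without passing (adjusted p = 0.101). The difference of -0.46 (SE 0.09) became -0.26 with the 75th-percentile shift and passed at -1.01 with the processed signal (adjusted p = 0.00870). The second Grb10 probe was detected on no array. Cdkn1c, an inhibitor of cyclin-dependent kinases, read 9.95, 9.64 and 9.32 in control and 9.62, 9.27 and 9.27 in soy livers (NM_001161624). These ranges overlap, and the difference was -0.25 (SE 0.18, adjusted p = 0.653), or from -0.41 without control 3 to -0.09 without control 1. Plagl1, a zinc finger transcription factor of the imprinted gene network, showed on its brighter probe (NM_009538) a difference of -0.27 (SE 0.34, adjusted p = 0.809), where control 1 at 9.88 lay far above controls 2 and 3 at 8.81 and 8.59. Without control 1 that difference was 0.13. The other Plagl1 probe differed by 0.02 (SE 0.10, adjusted p = 0.957), with all 6 arrays between 8.50 and 8.68. Mest, a gene of the alpha/beta hydrolase family that is linked to adipose growth, read 7.67, 7.50 and 7.69 in control and 7.89, 7.81 and 7.84 in soy livers (NM_001252292). The soy livers were all above the control livers, by a difference of 0.23 (SE 0.10, adjusted p = 0.441) that did not pass. It was 0.35 with the 75th-percentile shift, 0.39 with the processed signal and 0.11 with the mean of both probes. The second Mest probe was detected on no array and differed by -0.00 (adjusted p = 0.994).

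**Figure D3:**
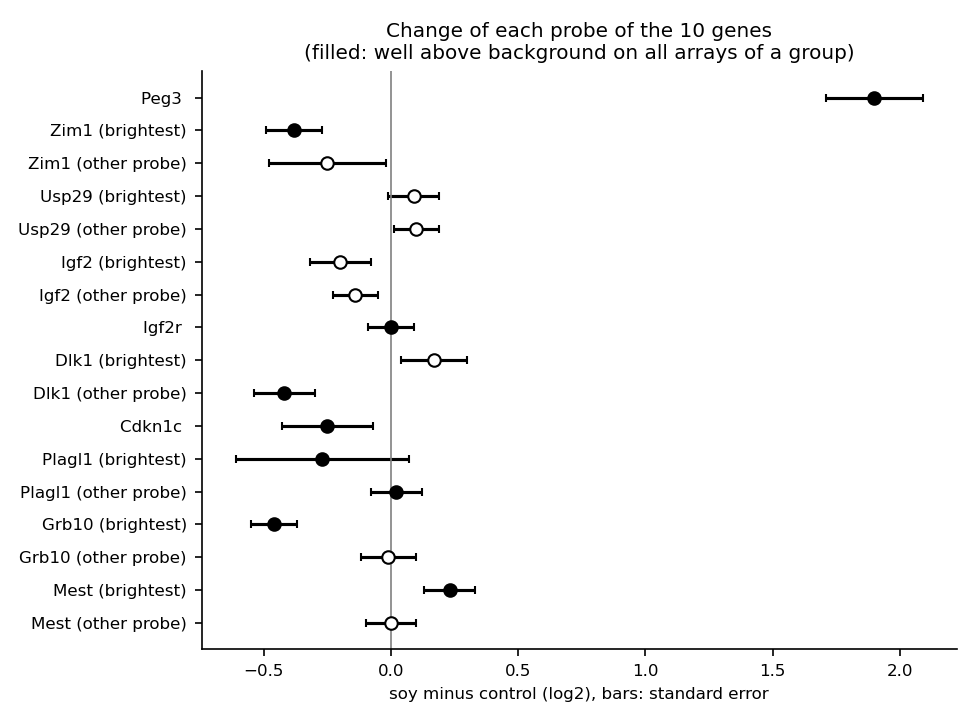
Difference between soy and control livers (log2, horizontal axis, with standard error) for each of the 17 probes, where filled points were detected in all livers of a diet group. Peg3 lies at 1.90 and the other 16 probes lie between -0.46 and 0.23.

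The threshold for a probe was an adjusted p below 0.05 together with more than 1.5-fold or less than 0.66-fold of the control signal. Of the 10 genes 1 lay past it, Peg3, the gene that the set was built on, which is no test of that gene. Of all probes 0.350% passed. Over all named genes 0.532% passed (122 of 22911), 0.340% as higher and 0.192% as lower. Nothing is read from the count of members, since the same contrast chose them. The smallest adjusted p among the other 16 probes was 0.101, and 3 of them had an unadjusted p under 0.05, beside 11.5% of all probes. By the brightest probe 5 of the 10 genes were higher and 5 lower, with a median difference of -0.10 beside -0.0057 over all genes. The median was -0.20 without Peg3, and with all 10 genes it was 0.06 without control 1, 0.02 with slide as a block and 0.01 with the 75th-percentile shift, so its sign is not settled. The groups did not overlap for 4 of them, 2 higher (Peg3 and Mest) and 2 lower (Zim1 and Grb10), where 20.4% of all genes did not overlap, 9.67% as higher and 10.8% as lower. Zim1 and Grb10 were detected on all control arrays and no soy array, as were 3.38% of all genes, while 0.00436% showed the opposite pattern. Each soy array had fewer detected spots than each control array, and the part of this in the lower readings of dim members was not tested. Of the brightest probes, 7 were detected in all livers of a diet group, 4 in all 6 livers, and that of Usp29 in none.

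Other imprinted genes were measured with lists written from general knowledge. Of 23 genes of the paternal allele, 22 had a probe, and 1 passed, as higher in soy, Kcnq1ot1 (background 0.340% of genes). Their median difference was 0.06, with 13 higher and 9 lower. On brightest probes 5 had an unadjusted p under 0.05 (limma), beside 14.2% of all genes. Kcnq1ot1, the long noncoding RNA that silences its neighbours on the paternal chromosome, rose by 0.97 (SE 0.14, adjusted p = 0.0428) on 1 of its 5 probes (NR_001461), from 9.51, 9.85 and 9.60 in control to 10.52, 10.52 and 10.83 in soy livers. Its brightest probe differed by 0.44 (adjusted p = 0.144) and the others by 0.28, -0.02 and -0.10, so the probes of this long transcript did not move alike. No gene of the list passed with any 1 array left out, with slide as a block or with the mean of a gene's probes. Impact, a regulator of translation control under amino acid shortage, read 10.42, 9.90 and 10.17 in control and 10.82, 10.72 and 11.10 in soy livers, a difference of 0.72 (SE 0.16, adjusted p = 0.143) without overlap, and it passed with the processed signal (0.71, adjusted p = 0.0323). Peg12 differed by 0.55 (adjusted p = 0.476; 0.28 without control 1 and 0.84 without control 2), with overlapping groups, and Ndn, which encodes a growth-restraining MAGE family protein, by -0.42 (adjusted p = 0.356).

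Of 22 genes of the maternal allele, none passed (limma, smallest adjusted p 0.0915). An unadjusted p under 0.05 was found for 4 of them by brightest probe, beside 14.2% of all genes. In the list 11 were higher and 11 lower, with a median difference of -0.02. Meg3, the long noncoding RNA read from the maternal chromosome beside Dlk1, read 8.34, 8.41 and 8.46 in control and 7.88, 7.55 and 7.25 in soy livers on its brightest probe (NR_027652). The groups did not overlap, with a difference of -0.84 (SE 0.16, adjusted p = 0.0915), and it passed when only detected probes were tested (adjusted p = 0.0495) and with the processed signal (adjusted p = 0.0161). It did not pass with slide as a block (adjusted p = 0.276), with 1 array left out (adjusted p from 0.075 to 0.251) or with the mean of its probes (-0.31, adjusted p = 0.271). Its other probes were near background and differed by -0.06, -0.13 and -0.21. Cd81, a tetraspanin, differed by 0.41 (adjusted p = 0.253), Osbpl5 by 0.47 (adjusted p = 0.450) and Ppp1r9a by -0.56 (adjusted p = 0.440). With 1 array left out Osbpl5 lay between 0.28 and 0.65 and Ppp1r9a between -0.75 and -0.28, and a second detected Osbpl5 probe differed by -0.17 without overlap.

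**Figure D4:**
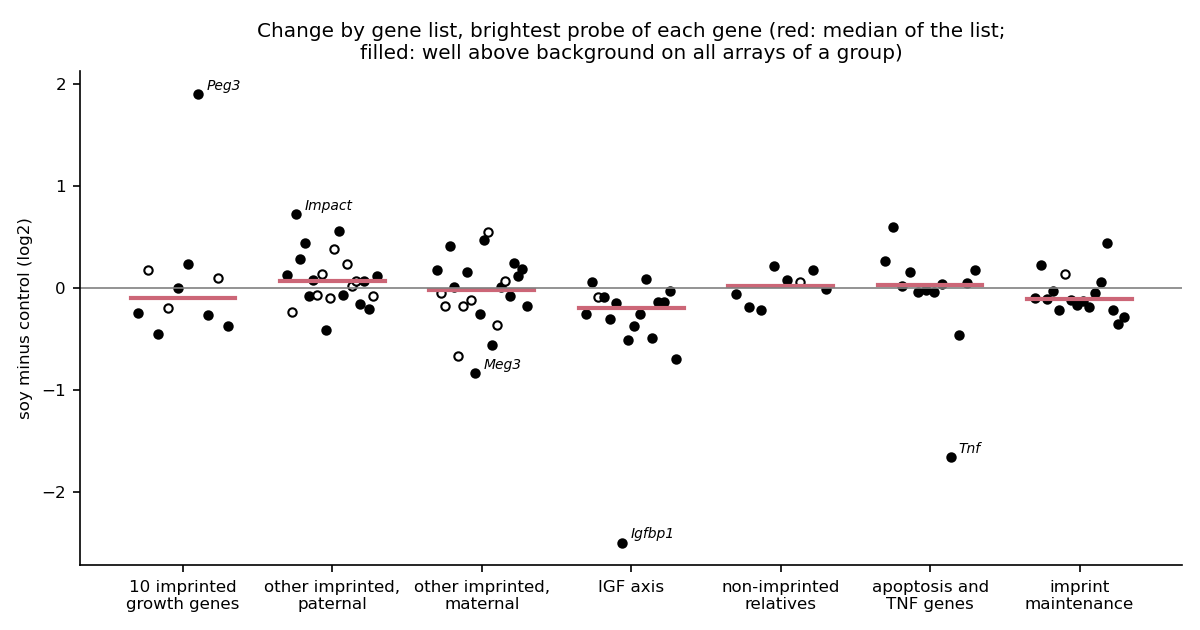
Difference between soy and control livers (log2, vertical axis) for each gene of the listed groups by its brightest probe, with a red line at the median of each list; filled points were detected in all livers of a diet group. Igfbp1 at -2.50, Tnf at -1.66 and Peg3 at 1.90 lie apart from the rest of their lists.

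The pathway that several members belong to was examined through 16 genes of the insulin-like growth factor axis. Of these, 1 fell in soy livers (background 0.192% of genes), 0 rose and 15 did not pass, with a median difference of -0.20 and 14 genes lower. On brightest probes 5 had an unadjusted p under 0.05 (limma), beside 14.2% of all genes. Without overlap 4 were lower and 0 higher, beside 10.8% and 9.67% of all genes. Igfbp1, a secreted binding protein that limits IGF action and is raised in fasting, fell from 15.14, 14.70 and 14.29 in control to 11.74, 12.17 and 12.73 in soy livers (NM_008341). This is a difference of -2.50 (SE 0.29, adjusted p = 0.0242), the soy livers all lying below the control livers. The fall was -3.18 within slide 1 and -1.56 within slide 3. It did not pass without control 1 (adjusted p = 0.0568), control 2 (0.0832), soy 1 (0.0750) or soy 2 (0.107), or with slide as a block (0.161). Igf1, the adult ligand made by hepatocytes, differed by -0.26 (adjusted p = 0.346) and Igfbp3, its main carrier, by -0.38 (adjusted p = 0.221), both without overlap; these 2 were named for their roles after their values were seen. Irs2 differed by -0.70 (adjusted p = 0.301), Igfbp2 by -0.51 (adjusted p = 0.406) and Igfbp6 by -0.49 (adjusted p = 0.675). With 1 array left out they ranged from -0.90 to -0.43 for Irs2, from -0.72 to -0.30 for Igfbp2 and from -0.89 to -0.19 for Igfbp6.

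PEG3 protein is known to act with SIAH1 and TRAF2 in p53 and tumour necrosis factor signalling, so 12 genes of these pathways were listed. Of these, 1 fell (background 0.192% of genes), 0 rose and 11 did not pass, with a median difference of 0.03. On brightest probes 4 had an unadjusted p under 0.05 (limma), beside 14.2% of all genes. Tnf, the cytokine itself, fell from 12.37, 12.33 and 13.04 in control to 10.89, 11.03 and 10.83 in soy livers on its brighter probe (NM_013693). The difference was -1.66 (SE 0.19, adjusted p = 0.0254), without overlap, while its other probe was detected on no array. The call was lost without control 1 (adjusted p = 0.0536), soy 1 (0.0982), soy 2 (0.101) or soy 3 (0.101), with slide as a block (0.104), and with the mean of both probes, which gave -0.83 (0.0545). Bbc3, which encodes the pro-apoptotic protein PUMA, differed by 0.59 (adjusted p = 0.218), Tnfrsf1a, a receptor of TNF, by -0.47 (adjusted p = 0.324) and Bax by 0.26 (adjusted p = 0.373).

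Factors that keep imprints through cell division, such as DNA methyltransferases and zinc finger proteins that bind imprinted regions, were listed as 16 genes. None passed (limma, smallest adjusted p 0.322), and by brightest probe 2 had an unadjusted p under 0.05, beside 14.2% of all genes. In this list 4 were higher and 12 lower, with a median difference of -0.12. Uhrf1, which brings DNMT1 to replicated DNA, differed by 0.44 (adjusted p = 0.322) and passed with the processed signal (0.93, adjusted p = 0.0420), and Zfp445 and Yy1 by -0.36 (adjusted p = 0.527) and -0.22 (adjusted p = 0.531). Zfp57 was detected on all control arrays and no soy array, with a difference of -0.29 (adjusted p = 0.375) that became -0.06 with the 75th-percentile shift and -1.21 (adjusted p = 0.101) with the processed signal. Non-imprinted relatives of the members (8 genes) gave no call either (limma, smallest adjusted p 0.571), and 0 had an unadjusted p under 0.05. Dlk2, Grb14, Cdkn1b and Plagl2 among them differed by -0.22, 0.21, -0.19 and 0.17.

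Whole liver holds several cell types, and in such samples fewer cells of a type and less RNA per cell cannot be told apart. Lists of markers were read beside Peg3 for that reason, and none of their 59 genes passed (limma, smallest adjusted p 0.178). By brightest probe 8 had an unadjusted p under 0.05, beside 14.2% of all genes. The 10 stellate cell and fibroblast markers had a median difference of -0.12, and their summed signal was 51831, 43562 and 48592 in control and 41900, 42418 and 46474 in soy livers. The one with the brightest probe, Dcn, differed by -0.08, Col3a1 by -0.94 (adjusted p = 0.271) and the pericyte gene Rgs5 by 0.33 (adjusted p = 0.419), and 3 of the 10 markers were higher and 7 lower. Col1a2 differed by -0.48 (adjusted p = 0.548), or by -0.70 without control 2 and -0.15 without control 1. Col1a1 read 9.91, 8.53 and 8.95 in control and 7.85, 8.06 and 8.49 in soy livers (adjusted p = 0.318). The sums of the groups overlapped, and within each diet group the livers had the order of their Peg3 signal. Their part in the Peg3 values was not tested. For the 8 endothelial markers (median 0.02, brightest probe Clec4g) the sums were 50569, 51620 and 49111 in control and 50437, 58200 and 53474 in soy livers. The 8 Kupffer cell markers (median 0.11, brightest probe Cd5l) summed to 40073, 55729 and 65049 in control and 50312, 60045 and 73717 in soy livers. Their median was -0.05 without control 1 and 0.29 without control 3, so its sign is not settled. Lyve1, Kdr, Cdh5 and Clec4g of the endothelial list, in which 4 markers were higher and 4 lower, differed by -0.67, 0.30, 0.22 and 0.20. Marco, Cd5l, Vsig4 and Csf1r of the Kupffer list, in which 7 of 8 markers were higher, differed by -0.73, 0.45, 0.44 and 0.23. Lyve1 was at -0.04 without control 1 and Marco at -0.20 without control 3. With 1 array left out Cd5l lay between 0.20 and 0.61 and Vsig4 between 0.27 and 0.62. Csf1r then lay between 0.15 and 0.34 and Cdh5 between 0.09 and 0.33. In both lists the sums of the groups overlapped, and their part in the Peg3 values was not tested.

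The 8 hepatocyte markers (median -0.12, brightest probe Serpina1a) summed to 2217309, 2192689 and 2106305 in control and 2114248, 2083498 and 1895811 in soy livers, and 7 of the 8 were lower. Tat, which breaks down tyrosine, differed by -0.76 (adjusted p = 0.324) and ranged with 1 array left out from -0.52 without control 1 to -1.08 without control 3, where alone it passed (adjusted p = 0.0495). Cps1, the entry enzyme of the urea cycle, differed by -0.47 (adjusted p = 0.178) without overlap, Hnf4a by -0.25 and Alb by -0.14. Among tissues that could be carried along with a liver sample, Adipoq and Plin1 of the 6 adipocyte markers, Ins2 and Gcg of the 7 pancreas markers, and Myh1, Myh4 and Ckm of the 6 skeletal muscle markers were detected on no array, as was the case for Lrrn4 of the 6 mesothelial markers. The medians of these lists were -0.08, -0.33, 0.04 and -0.21. In the same order 2, 0, 3 and 1 of their markers were higher and the others lower. The adipocyte list, with Fabp4 as its brightest probe, summed to 5035, 4098 and 4624 in control and 5645, 4310 and 4301 in soy livers. The mesothelial list (brightest probe Msln) summed to 1242, 889 and 1125 against 1081, 843 and 944. The pancreas list (brightest probe Cel) gave 1129, 1135 and 852 against 870, 871 and 825, and the muscle list (brightest probe Tnnt3) 964, 1022 and 988 against 969, 978 and 901. The groups overlapped in each of these sums, the hepatocyte sum included. Readings of undetected markers are counted in the adipocyte, mesothelial, pancreas and muscle sums, which therefore hold background signal in part. Cidec, Lep and Fabp4 differed by 0.61, -0.21 and -0.15, Wt1 and Msln by -0.25 and -0.16, Cel by -0.15, and Mylpf and Tnnt3 by -0.17 and -0.03. Cidec was at 0.07 without soy 1 and at 0.92 without soy 2. Wt1 lay between -0.50 and -0.07 with 1 array left out. Upk1b, Upk3b, Cela3b and Acta1 were detected on all control arrays and no soy array, as were 3.38% of all genes. They differed by -0.46, -0.34, -0.33 and -0.30. Only Upk1b was without overlap (limma adjusted p = 0.226).

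The genes whose signal followed that of Peg3 most closely were named by the Pearson correlation over the 6 arrays among 13495 genes detected on all arrays. They were Gstm1 (r = 0.995), Dus1l (0.992), Btg1 (0.991), Acadvl (0.989) and 4930402H24Rik (0.989). These values are a description, since the 2 diet groups make up most of the spread of every gene on this list and the arrays are the same. Gstm1, a glutathione S-transferase, read 17.09, 16.63 and 16.77 in control and 17.79, 17.75 and 17.80 in soy livers. Its control livers keep the order of Peg3, with control 1 highest and control 2 lowest, while in soy livers Gstm1 was lowest in soy 2 and Peg3 in soy 1. Differences between the groups were 0.95 for Gstm1, 0.43 for Dus1l, 0.69 for the antiproliferative gene Btg1, 0.37 for Acadvl, which encodes an enzyme of mitochondrial fatty acid oxidation, and 0.70 for 4930402H24Rik, each smaller than the 1.90 of Peg3.

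**Figure D5:**
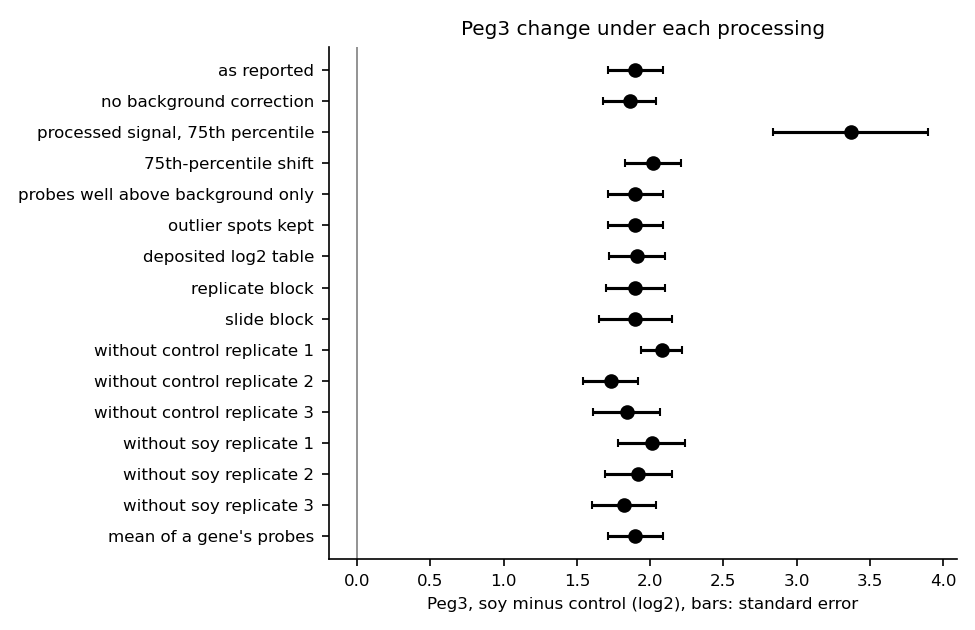
Difference of Peg3 between soy and control livers (log2, horizontal axis, with standard error) as reported and under each other processing of the arrays. The points lie between 1.73 and 2.08 except for the processed signal at 3.37.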

How the data were processed

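The authors deposited, per the file headers, Agilent Feature Extraction 11.5.1.1 output with spot and background median intensity, not normalized, and a quantile-normalized log2 table of these 6 arrays. The methods name median signals, limma and Benjamini-Hochberg adjustment. Here median intensities were background corrected (normexp, offset 50), quantile normalized and log2 transformed, control and outlier spots were left out, and spots of a probe were averaged. These values differed from the deposited log2 values by at most 0.0705. Each of 56605 probes was fitted for soy against control with limma 3.58.1 (R 4.3.3), and p-values were adjusted over all probes. Symbols came from RefSeq accessions (GRCm38.p6) for 58.3% of probes; the array annotation uses another build. A gene is given by its brightest probe.

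Members and lists were chosen with earlier results of these data known. Named genes were all members, and from each list the genes that passed and the 4 with the largest difference among detected genes; the brightest marker of each cell type list was added. Python 3.11.15, pandas 2.3.3 and matplotlib 3.10.9 made tables and plots. The fit was tested on simulated data without slide differences, with shifts only in probes detected on all arrays. That test does not cover dim members or the slides. Precision is limited by having only 3 arrays in each group.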

Additional observations from a re-analysis of the deposited data

How the results depend on the processing

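The Peg3 difference kept its direction in every alternative. It was 1.86 without background correction, 2.02 with a 75th-percentile shift, 1.91 in the deposited log2 table and 3.37 with the processed signal; with the replicate block and with the slide block it was 1.90, and between 1.73 and 2.08 with 1 array left out. The count of genes that passed was 122. It was 5892 with the processed signal (5332 higher, against 78 of 122), 312 with only probes well above background, where fewer probes were tested, 51 with the replicate block and 16 with the slide block, and 18 to 134 with 1 array left out. Of the 10 members, 5 passed with the processed signal, 0 with the replicate block, 0 with the slide block, and 0 to 1 with 1 array left out (0 without any 1 of the soy arrays); since Peg3 chose the set, these counts are no test of it. The 5 were Peg3, Dlk1, Grb10, Usp29 and Zim1, with -1.52 for Zim1 (adjusted p = 0.0204), -1.01 for Grb10 (0.00870) and 1.16 for Usp29 (0.00177), a gene not well above background on any array; with the 75th-percentile shift Zim1 was at -0.15 and Grb10 at -0.26, and with the mean of its probes Grb10 was at -0.24. With the processed signal the brighter Dlk1 probe did not pass (0.48, adjusted p = 0.72), and the value of the other probe is not given. The 75th-percentile shift and the processed signal each moved the median of all probes to 0.13, from -0.01. Differences near 0 changed sign: Igf2 (0.02) and Tnnt3 (0.03) with the 75th-percentile shift, Igf2r with that shift (-0.01) and the processed signal (-0.01), Alb with the processed signal (0.01), Dlk1 (-0.12) and Sox9 (0.09) with the mean of a gene's probes, and Plagl1 with the slide block (0.01). With 1 array left out, Igf2r lay between -0.02 and 0.03, Plagl1 between -0.52 and 0.13, Fabp4 between -0.26 and 0.07, Msln between -0.47 and 0.07 and Tnnt3 between -0.08 and 0.02. The replicate numbers were not taken to pair the mice, as deviations of same-numbered arrays correlated at 0.104, -0.0521 and 0.101; Igfbp1 (adjusted p = 0.0854) and Tnf (0.0680) did not pass with the replicate block. List medians near 0 also changed sign with 1 array left out. The median lay between -0.06 and 0.03 for the maternal list and between -0.01 and 0.08 for the genes linked to PEG3. It lay between -0.09 and 0.08 for the fetal liver list, -0.02 and 0.10 for the endothelial list and -0.05 and 0.06 for the muscle list. Except where a value or the construction of an alternative is named, the cause was not tested. Depth of signal limits Zim1, Usp29, Igf2, Dlk1 and Grb10, which lay near background.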

Other observations

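Beside Meg3, other noncoding RNAs of the maternal chromosome in the region of Dlk1 were read after their values were seen. Rian, a host of small nucleolar RNAs, was detected on 2 control arrays and no soy array. Mirg, a host of microRNAs, was detected on all 3 control arrays and no soy array. Rian read 6.49, 6.73 and 6.88 in control and 6.33, 6.38 and 6.28 in soy livers (limma adjusted p = 0.301), and Mirg 7.13, 7.17 and 6.92 against 6.87, 6.78 and 6.78 (adjusted p = 0.403). In both the control and soy livers did not overlap. H19, a maternal noncoding RNA beside Igf2, was detected on 2 control arrays and no soy array. It read 8.27, 6.68 and 6.83 in control and 6.62, 6.57 and 6.59 in soy livers (adjusted p = 0.562), with control 1 far above all the other arrays, which lay close together. None of them passed.

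Genes that are high in fetal liver and in progenitor cells were listed as 11 genes, and none passed (limma, smallest adjusted p 0.308). By brightest probe 1 had an unadjusted p under 0.05, beside 14.2% of all genes. The median difference of the list was -0.00, with 5 higher and 6 lower. Afp, the fetal serum protein, differed by -0.44 (adjusted p = 0.354) without overlap and passed with the processed signal (-0.67, adjusted p = 0.0438), and Trim71, Sox9 and Cd24a had overlapping groups on their brightest probes. The other probes of Sox9 (0.35, adjusted p = 0.412) and Cd24a (0.32, adjusted p = 0.308) were higher in soy livers without overlap.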
